A study of Drosophila melanogaster with 2 samples.

Results

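The genes described here are 8 genes of the ecdysone response of Drosophila melanogaster, EcR, usp, Eip74EF, Eip75B, br, ftz-f1, Hr4 and Sox14, out of 13945 annotated protein-coding genes. They were chosen by name for their place in this hormone pathway, not by any measured value, though earlier results of these data were known. The study mapped where the protein CG1620 sits on chromatin by ChIP-seq, the sequencing of DNA recovered with an antibody, in whole adult females of unknown age. The flies came from 1 transgenic line that stably expressed CG1620 with a C-terminal green fluorescent protein tag, and the antibody was directed against the tag; the sources used here do not say what drives the transgene or whether the flies kept their own CG1620 gene. There was 1 group with 2 biological replicates, numbered 2 and 3, and no other condition, so each result is a description of where peaks lay and how strong they were in each replicate. The authors deposited peak lists. An optimal set of 3894 peaks had passed the irreproducible discovery rate (IDR) procedure, which ranks peaks by how well they recur between lists; these are called IDR peaks below. Of them, 3747 had a counterpart among the candidates of both replicates. Lists of 30000 candidates for the pooled data and for each replicate reach into background. The signal value is the authors' score of a peak against the control, and the lists are not scaled to each other. The lists hold no read counts, so sequencing depth is unknown.

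Ecdysone is the steroid hormone that times moulting and metamorphosis in insects, and in adult females it is made in the ovary and acts on egg production. The hormone binds a dimer of 2 nuclear receptors, EcR and its partner usp, the fly member of the retinoid X receptor family. The bound dimer turns on early genes such as Eip74EF, Eip75B and br, whose products are themselves transcription factors. These and other factors such as Hr4, ftz-f1 and Sox14 pass the signal on. Several of these genes are long and have alternative promoters, which give isoforms that differ at their N-terminus.

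Shown here, on the strand of the gene, are 6 stretches that reach 50 bases to either side of the summit of an IDR peak. The first 4 are intronic and share the 9 bases GCGCCATCT, set in capitals. The fifth is the strongest peak inside Hr4, and the sixth lies just upstream of the distal start of usp; neither holds the 9 bases. The sequences are from the RefSeq copy of the dm6 genome, and none overlaps an annotated exon.
Eip74EF intron, chr3L:17597042-17597142, minus strand: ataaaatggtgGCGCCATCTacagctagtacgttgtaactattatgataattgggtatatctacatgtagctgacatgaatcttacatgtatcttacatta
Eip75B intron, chr3L:18019757-18019857, minus strand: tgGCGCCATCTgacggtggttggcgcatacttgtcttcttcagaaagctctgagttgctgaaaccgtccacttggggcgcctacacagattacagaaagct
Eip75B intron, chr3L:17988282-17988382, minus strand: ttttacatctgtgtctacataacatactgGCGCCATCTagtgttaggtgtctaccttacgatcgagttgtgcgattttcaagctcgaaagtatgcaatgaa
Hr4 intron, chrX:1953079-1953179, plus strand: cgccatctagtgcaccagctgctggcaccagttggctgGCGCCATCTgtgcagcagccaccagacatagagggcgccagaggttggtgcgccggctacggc
Hr4 intron, chrX:1963877-1963977, plus strand: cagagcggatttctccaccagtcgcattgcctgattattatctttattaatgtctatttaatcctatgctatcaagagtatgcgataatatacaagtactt
usp upstream, chrX:2042389-2042489, minus strand: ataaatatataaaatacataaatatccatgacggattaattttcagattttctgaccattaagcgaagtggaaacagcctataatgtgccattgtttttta

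The 8 genes divided into those with IDR peaks at promoters and those with IDR peaks only in their interior. A promoter peak is one whose summit lies within 500 bp of a transcription start site (TSS). By this rule 3 of the 8 genes, usp, Eip75B and Sox14, had an IDR peak at a promoter, against 26.3% of all protein-coding genes. All 8 genes had at least 2 promoters, counting TSSs within 500 bp of each other as 1, and among protein-coding genes with 2 or more promoters the share was 40.9%. Of the 27 promoters of the 8 genes, 5 had an IDR peak, against 22.7% of all promoters of protein-coding genes, and of their 33 distinct TSSs, 5 had one, against 24.2%. These shares lie near the background, so the promoters of the 8 genes do not stand out in either direction.

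The interiors of the long genes held many peaks. EcR, Eip74EF, Eip75B, br, ftz-f1 and Hr4, all over 50 kb long, together held 16 IDR peaks between their ends and over 500 bp from every annotated TSS. Such a peak was found in 6 of the 8 genes, against 3.87% of all protein-coding genes and 26.4% of the 307 protein-coding genes of 50 kb or more; the class of long genes was set after the lengths of the 8 genes had been seen. The short genes usp (3.514 kb) and Sox14 (6.377 kb) had none. At promoters, 1 of the 6 long genes, Eip75B, had an IDR peak, against 26.1% of all genes of that length, which is near the background.

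**Figure D1:**
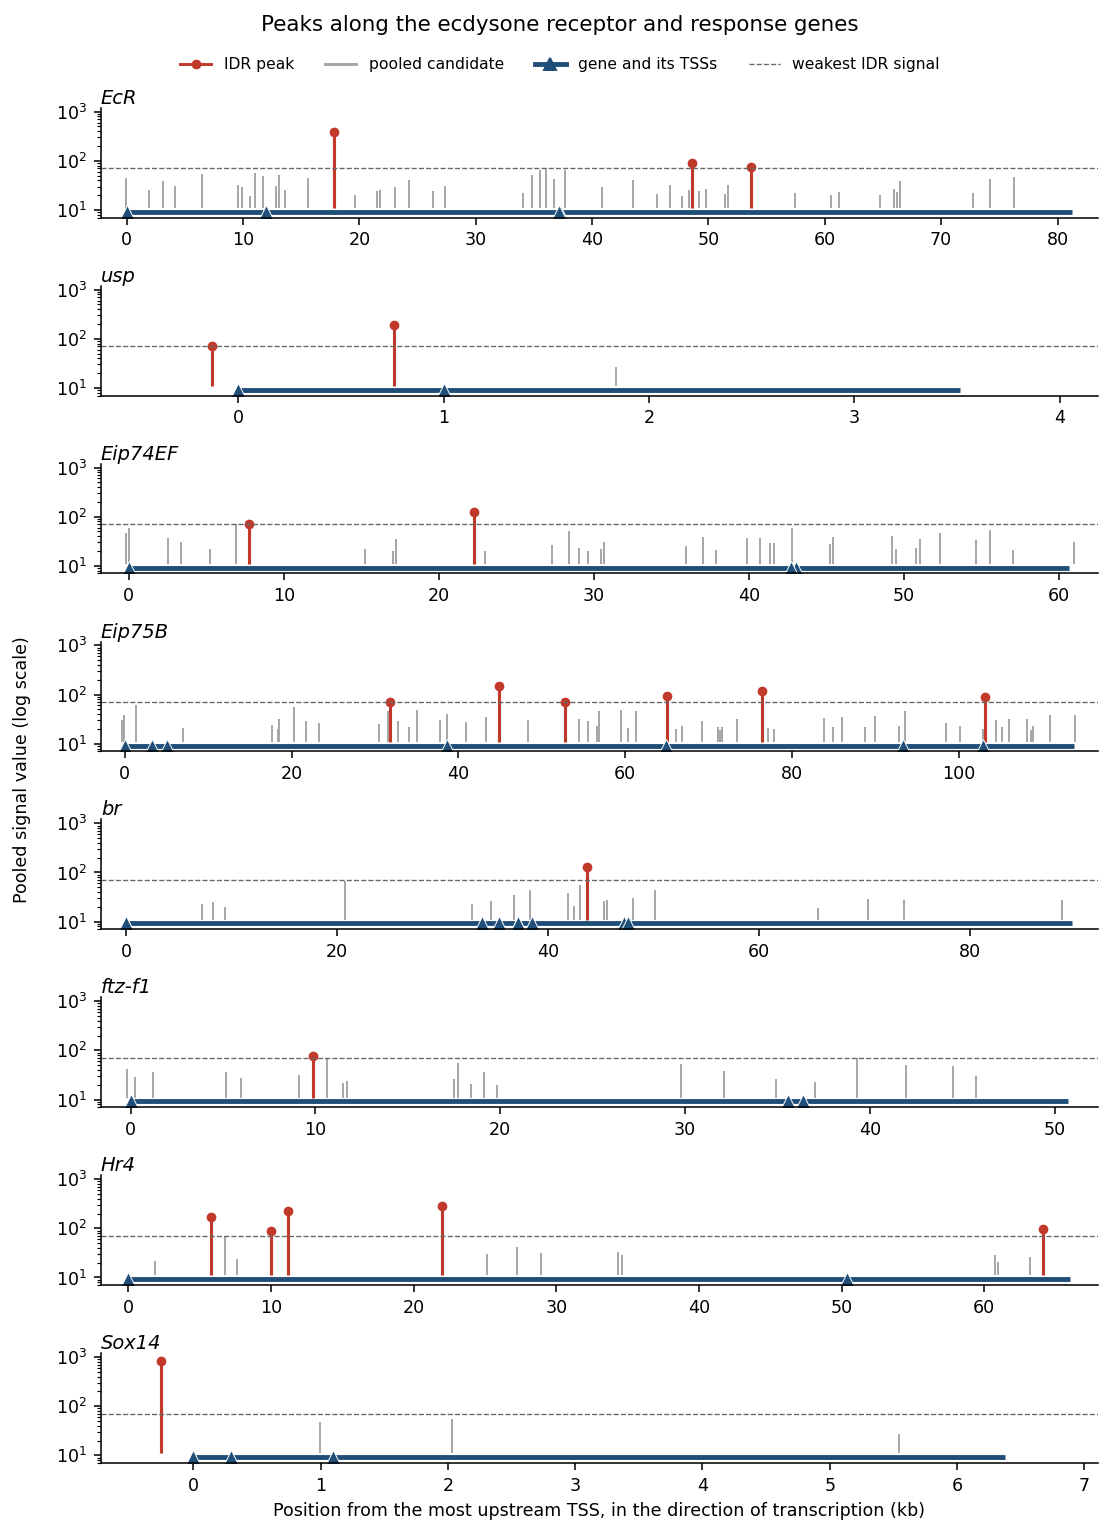
Pooled signal value (log scale) of each peak summit along the 8 genes, plotted by its distance in kb from the most upstream TSS in the direction of transcription. Red stems are IDR peaks, grey stems other pooled candidates, blue bars the genes, triangles the TSSs, and the dashed line the weakest IDR signal of 70.0. Peaks of usp and Sox14 sit at the start of the gene, and the peaks of EcR, Eip74EF, br, ftz-f1 and Hr4 lie away from the triangles.

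EcR encodes the ecdysone receptor itself. It lies on the minus strand of chromosome arm 2R from 6087873 to 6169087 and spans 81.2 kb, with 6 annotated transcripts from 3 promoters. None of the 3 promoters had an IDR peak. The strongest peak of the gene, with its summit at 6151273, lay in an intron. The peak was 5856 bp downstream of the TSS at 6157129 and 1403 bp from the nearest TSS of any gene, that of tRNA:Asn-GTT-1-1. Its signal was 385 in the pooled data, rank 171 of the 3894 IDR peaks, 280.1 in replicate 2 (rank 168) and 104 in replicate 3 (rank 188). This was the strongest of the 16 interior peaks in the 8 genes, and both replicates placed its summit within 36 bp of the pooled one. It was narrow, at 177 bp, where most peaks were called at a fixed width of 400 bp; 7.37% of IDR peaks were under 200 bp wide.

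The other IDR peaks of EcR were weaker and differed more between the replicates. Both lay downstream of the third promoter, in introns that all 6 transcripts span. The peak at 6120520 had a pooled signal of 89.95 and ranked 2542 in replicate 2 and 5210 in replicate 3. The peak at 6115449 had a pooled signal of 73.4 and ranked 3666 in replicate 2 and 11351 in replicate 3, so it was far weaker in the ranking of replicate 3. At the EcR promoters themselves the pooled list held candidates below the IDR cut. The transcript EcR-RA starts at 6169087, where the candidate had a pooled signal of 44.2 and no counterpart in replicate 3. The promoter of EcR-RD and EcR-RE at 6157129 had 50.2, also with none in replicate 3. The third promoter, which serves EcR-RB, EcR-RC and EcR-RG from TSSs at 6131922 and 6131841, had 65.9 at rank 4206 and candidates in both replicates. A further candidate 1120 bp upstream of that promoter, at 6133042, had a pooled signal of 69.97 and rank 3899, only just below the last IDR peak, and ranked 3816 in replicate 2 and 3869 in replicate 3.

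The gene usp encodes the dimer partner of EcR. It lies on X from 2038798 to 2042311 on the minus strand, and both of its promoters had an IDR peak. The stronger one, at 2041552, lay 240 bp upstream of the proximal TSS at 2041312, in an exon of the 5′ untranslated region of the longer transcript usp-RB. Its signal was 187 in the pooled data (rank 883), 139 in replicate 2 (rank 845) and 42.8 in replicate 3 (rank 1243), and the summit of replicate 3 lay at 2041545. Its summit also lies inside Actn, the gene of the muscle protein alpha-actinin, and within 500 bp of a TSS of CG4313, which runs in the opposite direction. The second peak, at 2042439, lay 128 bp upstream of the distal TSS at 2042311, a position that usp shares with Actn, and inside CG4313. It was near the IDR cut, with a pooled signal of 72.3, and the replicates differed, with a signal of 63.1 in replicate 2 (rank 3100) and of 11.4 in replicate 3 (rank 9301). Neither peak can be given to usp alone.

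Eip74EF, an early gene for a transcription factor of the ETS family, lies on the minus strand of 3L from 17558672 to 17619325. Its 2 promoters had no IDR peak, though both had a pooled candidate, with signals of 58.1 (rank 4960) at the distal TSS and 57.7 (rank 5009) at the proximal one. The distal candidate was found in replicate 2 and not in replicate 3. Inside the gene there were 2 IDR peaks. The peak at 17597092, whose sequence is shown above, lay 20466 bp upstream of the proximal promoter, in an intron of the 3 transcripts that start at the distal one. It had a pooled signal of 126 (rank 1704), 86.1 in replicate 2 (rank 1956) and 38.4 in replicate 3 (rank 1465), so the replicates placed it alike. The peak at 17611569 lay 7756 bp downstream of the distal TSS, with a pooled signal of 71.0, close to the cut, and ranks of 3400 and 7983.

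Eip75B encodes a nuclear receptor that binds haem and is related to the vertebrate REV-ERB receptors. It is the longest of the 8 genes, at 113.744 kb on the minus strand of 3L from 17950953 to 18064696, with 7 transcripts that each start at a TSS of their own. IDR peaks lay at 2 of the 7. At the TSS of Eip75B-RC (17999821) the summit was 81 bp downstream, with a pooled signal of 93.0, 71.5 in replicate 2 (rank 2582) and 22.0 in replicate 3 (rank 3010). At the TSS of Eip75B-RD (17961814) it was 192 bp downstream, with 87.3, 73.1 (rank 2493) and 13.5 (rank 6359). Both summits were downstream of the TSS, in the 5′ untranslated region of the transcript concerned. The promoter peaks of usp and Sox14 lay upstream of the TSS they are assigned to. The stronger usp peak is nevertheless also in a 5′ untranslated region, that of usp-RB. Of the other 5 promoters, those of Eip75B-RA, Eip75B-RF and Eip75B-RG had pooled candidates with signals of 45.6, 37.9 and 39.8. The TSSs of Eip75B-RB and Eip75B-RE had no pooled candidate.

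Another 4 IDR peaks lay in introns of Eip75B. The strongest, at 18019807, was 6225 bp downstream of the TSS of Eip75B-RG, with a pooled signal of 150.3 (rank 1265), 106 in replicate 2 (rank 1359) and 44.2 in replicate 3 (rank 1172). The next, at 17988332, was 11489 bp downstream of the TSS of Eip75B-RC, with 116 (rank 1937), 77.7 (rank 2282) and 38.7 (rank 1448). These are the peaks of Eip75B that hold the 9 bases GCGCCATCT, and both ranked higher in replicate 3 than in replicate 2. The peaks at 18032882 and 18011929 were near the cut, with pooled signals of 71.95 and 71.6. The first ranked 4372 in replicate 2 and 3466 in replicate 3, and the second 3187 and 6417.

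The gene br, or broad, encodes zinc finger transcription factors with a BTB domain. It lies on the plus strand of X from 1575132 to 1664869, with 16 transcripts from 6 promoters, none of which had an IDR peak. The promoters of br-RN and br-RO, of br-RH and of br-RC had no candidate in any list. The promoter that serves 9 of the 16 transcripts, at 1612308, had a pooled candidate of 34.8 (rank 10488) that was absent from replicate 3. The promoter of br-RI had 44.5 (rank 7134), with candidates in both replicates. The single IDR peak of br, at 1618841, lay in an intron, at -3467 bp from the most proximal promoter. Its signal was 132 in the pooled data (rank 1584), 99.8 in replicate 2 (rank 1504) and 34.2 in replicate 3 (rank 1689). This summit also lies within Mur2B, a gene that overlaps br on the other strand, 686 bp from one of its TSSs, so with a promoter window of 1000 bp it would be a promoter peak of Mur2B.

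Hr4, a nuclear receptor that represses early genes, held the most interior peaks of the 8 genes. It lies on the plus strand of X from 1941940 to 2007956, with 9 transcripts from 2 promoters. Neither promoter had a candidate of any strength in the pooled list or in either replicate. Hr4 is the only one of the 8 genes of which this is true. Inside it there were 5 IDR peaks, or 7.57 per 100 kb. The strongest, at 1963927 and 21987 bp downstream of the first TSS, had a pooled signal of 278 (rank 394), 204 in replicate 2 (rank 367) and 74.5 in replicate 3 (rank 438). The next, at 1953129, had 222 (rank 640), 143 (rank 802) and 71.5 (rank 479). Both were narrow, at 158 and 137 bp, and with the EcR peak they were the only member peaks under 200 bp wide.

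The peak at 1947749 lay 5809 bp downstream of the first TSS of Hr4, with a pooled signal of 171 (rank 1016), 123 in replicate 2 (rank 1042) and 45.2 in replicate 3 (rank 1122). That at 1951930 had a pooled signal of 88.3 and ranks of 2964 and 3370. These 4 peaks fell in an intron of the 7 transcripts that start at 1941940. The fifth, at 2006028, lay near the other end of the gene, in the 3′ untranslated region of the 1 transcript that spans it. It had a pooled signal of 98.6 and ranks of 2513 and 2655. All 5 ranked within the strongest 3894 candidates of both replicates. The nearest IDR peak upstream of the gene was 1703 bp from its first TSS, at the promoters of CG3587 and CG3857, with a signal of 207.

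The gene ftz-f1 encodes a nuclear receptor that sets the competence of tissues for later ecdysone pulses. It lies on the minus strand of 3L from 18750607 to 18801309, and its 3 promoters had no IDR peak. Only the distal promoter, at 18801309, had a pooled candidate, with a signal of 41.5 (rank 7900), and it was absent from replicate 3. The single IDR peak, at 18791432, lay 9877 bp downstream of that TSS, in an intron and within lncRNA:CR45939, a non-coding gene on the same strand. Its pooled signal was 76.8 (rank 3446), and it rests on replicate 2 (signal 69.7, rank 2700): among the 30000 candidates of replicate 3 none overlapped it by 50% of either peak. It is the only one of the 21 peaks without a counterpart in both replicates.

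Sox14 encodes a transcription factor of the HMG-box family that EcR activates in metamorphosis. It had by far the strongest peak of the 8 genes. It lies on the plus strand of 2R from 23978801 to 23985177. The peak, at 23978547, lay 254 bp upstream of the first TSS at 23978801, with a signal of 820.5 in the pooled data, 605 in replicate 2 and 212 in replicate 3. It ranked 24 among all IDR peaks, 22 in replicate 2 and 32 in replicate 3, and both replicates placed the summit within 16 bp of the pooled one. No TSS of another gene was within 500 bp. Because the distance is just over 250 bp, Sox14 drops out of the count with a 250 bp window. Its second promoter, at 23979895 (Sox14-RB), had a candidate in replicate 2 (signal 55.3, rank 3737) and none in replicate 3. A further IDR peak 1420 bp upstream of Sox14 (signal 86.6) lay at the promoter of PPP1R15.

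**Figure D2:**
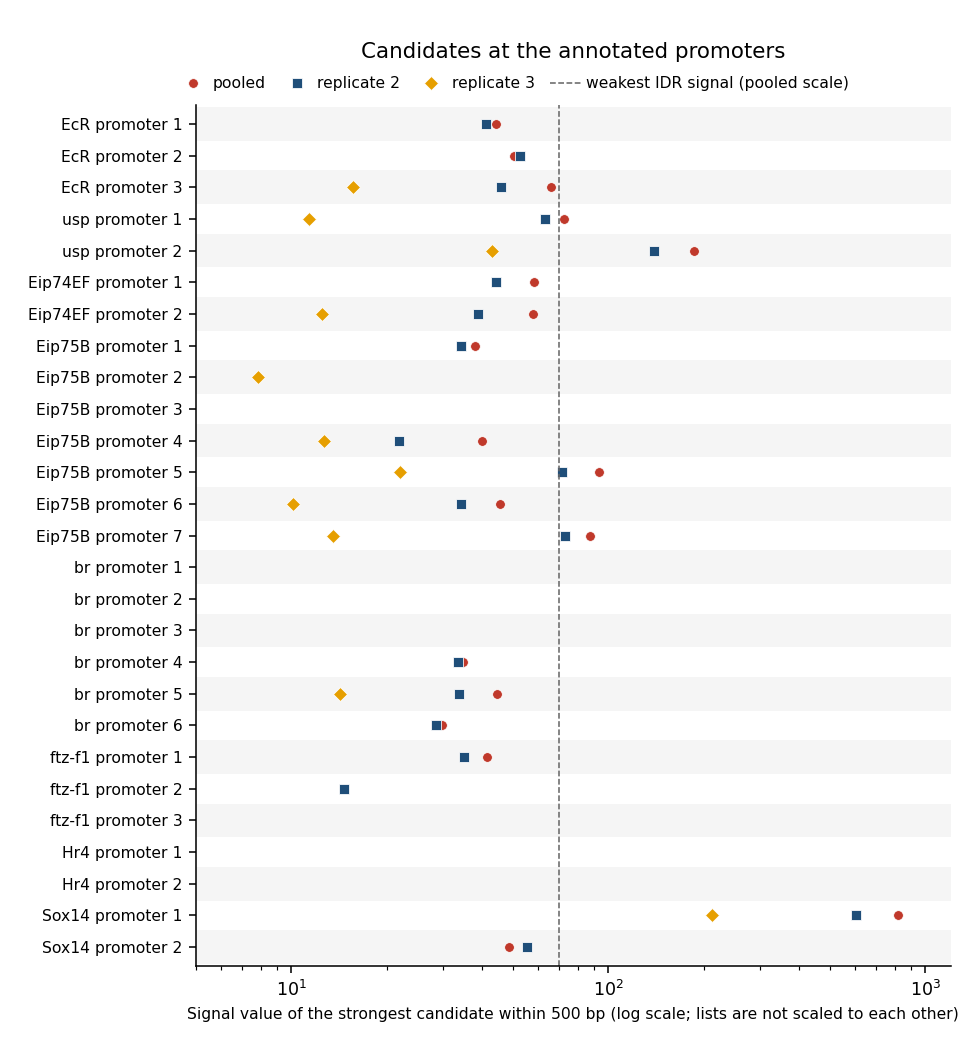
Signal value (log scale) of the strongest candidate within 500 bp of each of the 27 promoters, numbered in the direction of transcription, in the pooled data (red circles), replicate 2 (blue squares) and replicate 3 (yellow diamonds); a row without a point had no candidate. The dashed line is the weakest IDR signal of 70.0, which applies to the pooled values: 5 red circles lie above it, with Sox14 promoter 1 at 820.5 and usp promoter 2 at 187.

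Weak candidates were spread over the promoters of the 8 genes about as often as over others. Of the 27 promoters, 18 had a pooled candidate of any strength, against 55.2% of all promoters of protein-coding genes. In both replicates 10 had one, against 40.1%. With only as many of the strongest candidates of each replicate as there are IDR peaks, 3 promoters had one in both, against 17.9%: the first of Sox14, the proximal one of usp and that of Eip75B-RC. The count of 5 promoters depended on the replicate. It was 6 among the strongest 3894 candidates of replicate 2 alone, against 22.4% of all promoters. Among those of replicate 3 alone it was 3, against 21.8%, since the distal usp peak and that of Eip75B-RD ranked low in replicate 3. Near the 500 bp limit, the pooled candidates just inside were those at 496 bp in br (signal 29.8) and 440 bp upstream of the third EcR promoter (41.9), and those just outside were at 623 and 656 bp in ftz-f1 (26.6 and 23.0).

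**Figure D3:**
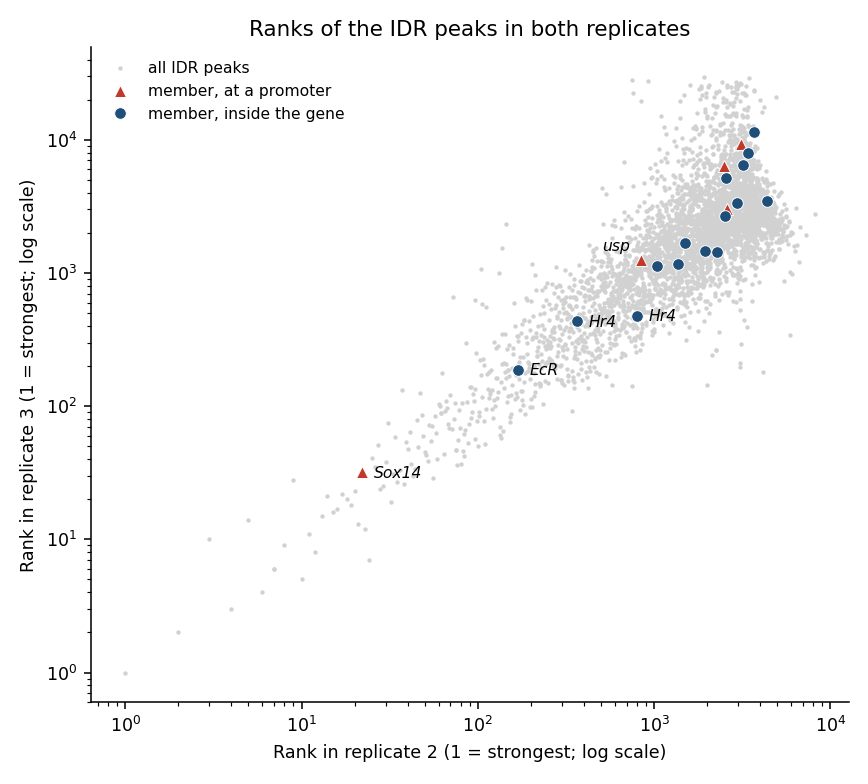
Rank in replicate 3 against rank in replicate 2 (both log scales, 1 is the strongest) of the 3747 IDR peaks with a counterpart in both replicates (grey), with the peaks of the 8 genes at promoters as red triangles and inside genes as blue circles. Sox14, at 22 and 32, EcR, at 168 and 188, and the 2 strongest Hr4 peaks lie low on both axes, and the coloured points above rank 3894 in replicate 3 are peaks with pooled signals of 71.0 to 89.95.

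Most of the peaks of the 8 genes were found in both replicates, as were most IDR peaks in general. Of the 21 IDR peaks, 20 had a counterpart in both replicates, against 3747 of all 3894 IDR peaks. Among the strongest 3894 of each replicate were 13 of the 21, and the like share over all IDR peaks was not counted. The ratio of the signal of replicate 2 to that of replicate 3 had a median of 2.95 over the 20 peaks, against 2.77 over all 3747 such IDR peaks (interquartile range 2.17 to 3.68). It ranged from 2.00 at the Hr4 peak at 1953129 to 5.55 at the distal usp peak. The pooled signal of the 16 interior peaks had a median of 107 (71.0 to 385), and all IDR peaks one of 115.005. Counted over the strongest 3894 candidates of 1 replicate, without the IDR procedure, the interior count was 19 in replicate 2 and 20 in replicate 3. Among the strongest 3894 candidates of one replicate at or inside the 8 genes, 5 of replicate 2 and 10 of replicate 3 had no IDR peak as a counterpart. Of those of replicate 3, 4 lay in EcR, 2 in br, 2 in ftz-f1, 1 in Eip74EF and 1 in Hr4. The EcR candidate of pooled rank 3899 is counted in both lists. The like share over all of the strongest candidates was not counted, so these counts do not set the 8 genes apart.

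**Figure D4:**
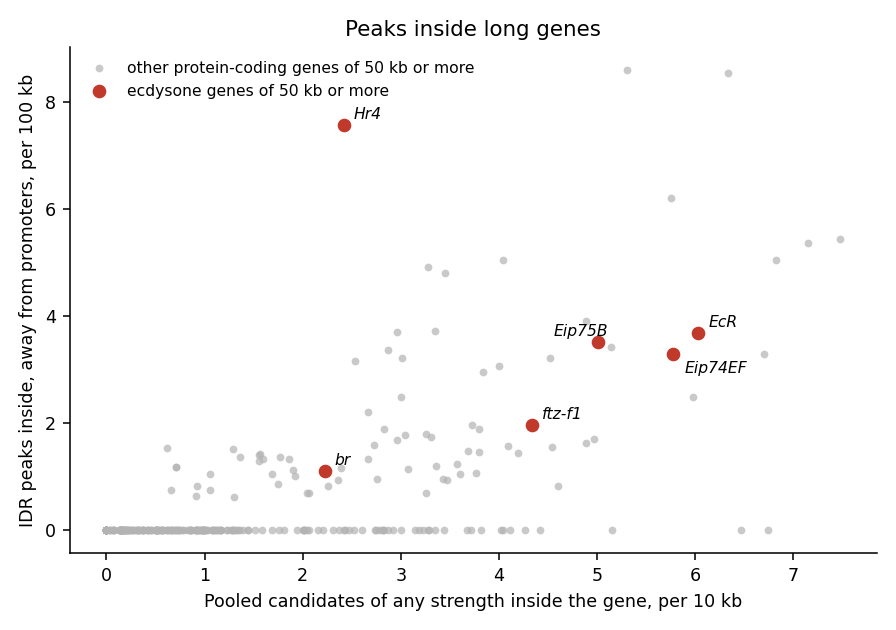
IDR peaks inside the gene and away from promoters, per 100 kb, against pooled candidates of any strength inside the gene, per 10 kb, for the 6 ecdysone genes (red) and 301 other protein-coding genes (grey) of 50 kb or more. Hr4 lies at 7.57 with 2.42 candidates per 10 kb, and the other 5 lie between 1.11 and 3.69; most grey points lie at 0.

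The 6 long genes held 3.46 interior IDR peaks per 100 kb, against 0.427 in the other 301 genes of 50 kb or more, whose median count was 0. Counts of 5 or more were found in Hr4 and in 3 others of this class, CG1677, Tlk and Smr. These 3 and Hr4 are on X. The long genes with a count of 4, Eip75B, SNF4Agamma, sbb and ush, are on autosomes, and br, also on X, held 1. The share of long genes on X was not counted. Smr encodes a corepressor that acts with EcR. Candidates of any strength numbered 2.23 (br) to 6.03 (EcR) per 10 kb in the 6 genes, against a median of 0.991 (interquartile range 0.353 to 2.69) in all genes of this length. EcR, Eip74EF, Eip75B and ftz-f1 lay above that range, and br and Hr4 (2.42) lay within it. Among the 96 other long genes with at least 2 candidates per 10 kb, a limit set after the values were seen, 56.3% had an interior IDR peak, and the density was 1.34 per 100 kb. The pooled candidates include the IDR peaks, so these measures are not independent of each other, and the part of overall candidate density in the interior count was not tested.

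The other genes of the pathway were read from a list of 40 genes, of which 9, or 22.5%, had an IDR peak at a promoter, against the 26.3% of all protein-coding genes. None of the 9 genes for making or inactivating ecdysone had one. These are the Halloween genes nvd, spo, spok, sro, phm (annotated as phtm), dib, sad and shd, and Cyp18a1, which degrades the hormone; only sro and sad had a pooled candidate within 500 bp of a TSS, with signals of 32.9 and 22.2. Of the transporters, E23, an ABC transporter that restrains the ecdysone response, had a peak of 280.0 (rank 466 in replicate 2 and 264 in replicate 3), and the importer EcI (annotated as Oatp74D) had none.

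Among 6 partners and coregulators of the receptor, 3 had an IDR promoter peak, against 26.3% of all protein-coding genes. With so few genes, this count does not set them apart. The coactivator gene tai had a signal of 183 (ranks 981 and 864 in replicates 2 and 3), at a summit shared with CG9586. The histone methyltransferase gene trr had 120.2 (ranks 1879 and 1882), shared with mRpL16, and rig, whose product binds EcR, had 105 (ranks 2104 and 2819), shared with maf-S. Smr had none at its promoter and 5 in its interior. Hr38 and svp, nuclear receptors that can pair with usp, had none at either place. Over the whole list, 7 of the 40 genes held an interior IDR peak. The shares were 3.87% of all protein-coding genes and 26.4% of those of 50 kb or more. Of the long genes of the list, Eip93F, chinmo and nvd held no interior peak, and tai and Eip63E held 1 each.

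Among 23 further response genes, 5 had an IDR promoter peak, against 26.3% of all protein-coding genes. The strongest was in Eip63F-1, which encodes a calcium-binding protein, with a signal of 355 (ranks 187 and 332), 471 bp from a TSS. The gene hid, an activator of apoptosis, had 169 (ranks 1348 and 557). The clock gene vri had 99.6 (ranks 2743 and 2627), with 3 more peaks in its interior. The nuclear receptor gene Hr39 had 77.6 (ranks 3686 and 4169), shared with CG31626. The peak of Eip63E, a gene for a cyclin-dependent kinase, had 74.8 and no counterpart in replicate 3. Those without one included Eip78C and Hr3, nuclear receptor genes of the same cascade with no pooled candidate at any promoter, and the hormone-responsive genes ImpE1, ImpE2, ImpE3 and ImpL1, likewise with none.

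The sequences searched at the member peaks were short motifs, most of them rare at IDR peaks in general. Within 50 bp of the 21 summits, on both strands, the ecdysone response element (an inverted repeat bound by EcR and usp) had no match, its half-site AGGTCA had none, and TATCGATA, the DRE sequence common at promoters, had none; the shares over all 3894 IDR peaks were 0.0257%, 1.54% and 4.60%. AACCCCC, which earlier results of these data had brought up, had none, against 0.770%. CGATA, part of TATCGATA, was found at 2 peaks (25.9% of IDR peaks), 1 in EcR and 1 in Hr4, and GAGAG at 2 (11.5%), 1 in Eip75B and 1 in Hr4. All 4 of these were among the 16 interior peaks; over the 934 IDR peaks away from promoters the shares were 13.2% for CGATA, 13.7% for GAGAG and 0.749% for TATCGATA. With so few peaks, these counts do not set the 8 genes apart. Over windows of the same length around the TSSs of protein-coding genes the shares were 0.00519% for the response element, 1.62% for AGGTCA, 4.48% for TATCGATA, 0.426% for AACCCCC, 23.6% for CGATA and 12.7% for GAGAG.

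The 9 bases GCGCCATCT, or their reverse complement AGATGGCGC, were the most frequent run of 9 in these windows. They occurred at 5 of the 21 peaks, in EcR, Eip74EF, Eip75B (at 2 peaks) and Hr4, each with 1 copy within 8 to 44 bp of the summit. In the EcR peak at 6151273 and the Hr4 peak at 1953129 the copy was 15 and 8 bp away, in Eip75B at 17988332 it was 17 bp away, and in the others 35 and 44 bp. All 5 were interior peaks, with pooled signals of 116 to 385. Over all IDR peaks the 9 bases were found at 44 of 3894, or 1.13%: at 28 of the 934 peaks away from promoters (3.00%) and at 16 of the 2960 at promoters (0.541%). They were in 0.0727% of the windows at TSSs. The run was picked because it was frequent at these very peaks, so its count here is a description and no test applies. The content of G and C in these windows had a median of 40.6% over the 21 peaks, near the 39.6% of all IDR peaks, and ranged from 27.7% at the distal usp peak to 66.3% at the Hr4 peak at 1953129.

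By rank in both replicates, the promoter peak most like that of Sox14 was shared by Lon and PIG-F (ranks 26 and 35), that most like the proximal usp peak was at RpL27 (ranks 854 and 1234), and that most like the peak of Eip75B-RC was at CG33177 (ranks 2598 and 3027). Likeness was the sum of the absolute log2 ratios of the ranks over the 2 replicates, 0.370, 0.0258 and 0.0170 for these pairs.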

How the data were processed

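Candidate peaks of each replicate, the pooled candidates and the optimal IDR set on dm6 were used as deposited. Per the text files deposited beside them, each list was made from alignments and 1 control file; for the aligner, the peak caller, their versions and the IDR threshold, nothing was stated (not given in the sources used here). The deposited signal values are scores of the authors' caller, not scaled between lists. The dm3 lists were not used, as no annotation of that build was used here. Chromatin was sheared by sonication to 200 to 800 bp, per the labels.

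Summits were compared with TSSs of Ensembl release 115 (pseudogenes and transposable elements left out), and a counterpart in another list had to overlap at least 50% of either peak. Assignment was tested on simulated data. Python 3.11.15, pandas 2.3.3 and numpy 2.4.6 were used. No condition was compared, so no test was made. Named were the 8 genes, genes sharing their peaks, pathway genes with a promoter peak, and the likest peaks; other genes were named after their values were seen. The genes, lists and motifs were chosen with earlier results of these data known.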

Additional observations from a re-analysis of the deposited data

How the results depend on the processing

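No paired analysis was possible because both replicates form 1 group. With the promoter window at 250 or 1000 bp, any base of a peak in place of its summit, the RefSeq annotation (all 48 listed genes matched), or TSSs merged within 1000 bp, the counts of members, promoters, TSSs and interior peaks stayed within 1.5 times the reported ones; the pathway count fell to 5 of 40 at 250 bp (22.4% of all coding genes), and promoters with a candidate in both replicates to 6 (29.9% of all promoters). In the stronger 50% of the IDR set the counts were 2 promoters, 2 TSSs, 8 interior peaks and 5 pathway genes, against 13.2% of promoters, 14.3% of TSSs and 15.7% of coding genes; fewer peaks were counted there by construction. With all pooled candidates they were 7 members, 18 promoters, 21 TSSs, 178 interior peaks and 23 pathway genes, against 57.5% of coding genes, 55.2% of promoters and 56.9% of TSSs. With 1 replicate left out, the strongest 3894 candidates of the other were used. The counts were then 3 members, 3 to 6 promoters, 3 to 6 TSSs, 19 to 20 interior peaks and 8 to 11 pathway genes. The lower values for promoters and TSSs came from replicate 3 alone. The shares were 25.4% to 25.9% of coding genes, 21.8% to 22.4% of promoters and 23.2% to 23.9% of TSSs. Among the strongest candidates, 3 promoters were found in both replicates. Within 100 bp of the summits CGATA and GAGAG were each found at 6 of the 21 peaks and GCGCCATCT at 5, against 41.0%, 22.7% and 1.54% of all IDR peaks. Of the 16 interior peaks, 4, 5 and 5 held these motifs, against 24.3%, 28.7% and 3.53% of IDR peaks away from promoters. Depth is unknown, so weak peaks in 1 replicate cannot be told from missed ones.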
